A study of Mus musculus with 19 samples.

Results

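Kruppel-like factors (Klf) are transcription factors whose zinc fingers at the carboxyl end bind GC-rich and CACCC sequences. Of the family, 9 genes (Klf1, Klf2, Klf3, Klf4, Klf6, Klf7, Klf9, Klf10 and Klf13) were followed through 7 sorted blood cell populations of mouse bone marrow, out of 20659 named genes and of 26 Klf and Sp genes with a probe. Members were found by the RefSeq accession of their probe. Each had 1 probe, so splice forms were not separated.

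The cells came from adult C57BL/6 mice aged 8 to 12 weeks, with no treatment or genetic change named in the labels, and each of 19 single-colour arrays held 1 sorted sample. LSK cells (no lineage markers, cKit and Sca1 on the surface, 3 arrays) include the stem cells, but the gate also holds multipotent progenitors. Common myeloid progenitors (CMP, CD16/32 low and CD34 high, 3 arrays) were sampled with the megakaryocyte-erythroid progenitors (MEP, low in both, 3 arrays) and the granulocyte-macrophage progenitors (GMP, high in both, 2 arrays). Early erythroblasts (EE, 2 arrays) were Ter119-positive, large and high in CD44, late erythroblasts (LE, 3 arrays) were Ter119-positive, small and intermediate in CD44, and granulocytes (GR, 3 arrays) carried Gr1. The labels leave unsaid whether arrays of a type stand for separate mice or pools, so the p-values cover the spread among these arrays alone, and that spread may be technical.

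The family divides by its partner proteins. Klf1, Klf2, Klf4, Klf6 and Klf7 carry activation domains and mostly raise transcription, and Klf1 is the erythroid member that drives globin, heme and red cell membrane genes. Klf3, like Klf8 and Klf12, binds the CtBP corepressors and competes for the same CACCC sites, and Klf9, Klf10 and Klf13 bind the Sin3 corepressor. Klf2, Klf4, Klf6 and Klf10 are also known as genes that growth factors, cytokines or stress switch on quickly, and Klf2 and Klf4 are known for quiescence and for monocyte and lymphocyte biology.

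The 250 bases before the RefSeq start of 8 of the 9 genes were read in assembly GRCm38.p6. Those of Klf1 and Klf3 are printed because these genes were highest in erythroblasts on the scale reported, and those of Klf2 and Klf6 because these were highest in granulocytes and ran most closely together. Each is written 5′ to 3′ on the strand of its gene and ends at the base before the start. Capitals mark matches, on either strand, to a Kruppel-like factor box (CCNCNCCC), a GATA site (GATA between A or T before it and A or G after it), an E box (CAGATG), a MEF2 site, a cyclic AMP element (TGACGTCA) or a CArG box. The windows lie at chr8:84901732-84901981 (Klf1), chr5:64803271-64803520 (Klf3), chr8:72318812-72319061 (Klf2) and chr13:5861239-5861488 (Klf6), all on the plus strand.
Klf1: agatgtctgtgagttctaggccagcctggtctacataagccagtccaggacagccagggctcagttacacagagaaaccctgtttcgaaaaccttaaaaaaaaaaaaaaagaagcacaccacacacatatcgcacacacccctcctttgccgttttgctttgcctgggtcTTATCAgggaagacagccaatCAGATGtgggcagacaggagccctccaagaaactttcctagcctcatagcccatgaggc
Klf3: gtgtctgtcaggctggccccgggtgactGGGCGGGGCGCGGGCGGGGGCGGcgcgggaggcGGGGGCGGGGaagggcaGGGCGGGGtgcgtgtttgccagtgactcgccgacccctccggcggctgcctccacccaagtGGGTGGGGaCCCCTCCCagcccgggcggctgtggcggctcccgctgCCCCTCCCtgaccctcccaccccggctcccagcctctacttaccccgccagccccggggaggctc
Klf2: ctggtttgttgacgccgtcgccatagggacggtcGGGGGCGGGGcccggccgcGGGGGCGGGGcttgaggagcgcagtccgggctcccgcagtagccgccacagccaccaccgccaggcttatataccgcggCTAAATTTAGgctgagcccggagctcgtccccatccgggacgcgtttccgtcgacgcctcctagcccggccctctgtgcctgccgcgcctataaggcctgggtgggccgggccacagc
Klf6: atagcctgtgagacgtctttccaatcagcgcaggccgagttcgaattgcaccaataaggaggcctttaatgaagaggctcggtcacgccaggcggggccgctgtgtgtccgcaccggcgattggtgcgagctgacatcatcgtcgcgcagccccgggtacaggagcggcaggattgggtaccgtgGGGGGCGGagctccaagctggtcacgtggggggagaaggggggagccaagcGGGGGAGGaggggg

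The Klf1 window held 1 GATA site (TGATAA, read as TTATCA on the printed strand) 80 to 75 bases before the start and 1 E box 59 to 54 bases before it, and no Kruppel-like factor box. Such a GATA site was found in 26.5% of 32851 mouse promoters of this length, and the E box in 14.4%. The Klf3 window held 10 matches, some overlapping, to the Kruppel-like factor box, the Klf2 window 4 and the Klf6 window 2; this box was found in 45.9% of all promoters. Klf2 also had 1 MEF2 site, 118 to 109 bases before the start, a motif found in 2.92% of promoters. Among the windows not printed, Klf4 had 9 such boxes, Klf7 8, Klf13 5 and Klf9 0, and Klf10 is not in the table. The share of G and C was 49.2% before Klf1 and 59.2% to 78.4% before the other 7, against a median of 52.4% over all promoters. A match is a run of letters, and binding was not measured here.

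Every member was measurable everywhere: all 171 member values (9 genes on 19 arrays) were well above background, none saturated. A level below is the log2 processed signal of the probe minus the 75th percentile of its array, so 0 is the brightness of that percentile, and levels of different probes are not set against each other. The 75th percentile itself was 50 to 80.9 intensity units on the 5 erythroblast arrays and 265.6 to 605.9 on the other 14. In bulk samples fewer cells of a type and less RNA per cell cannot be told apart. For erythroblasts, granulocytes and LSK cells the labels matched the defining genes by their summed linear level (each log2 level as its power of 2). The sum of 9 erythroid markers was 15030 to 26850 on erythroblast arrays and at most 628.7 elsewhere. That of 10 granulocyte markers was 7860 to 8858 on granulocyte arrays and at most 2910 elsewhere. That of 7 stem cell markers was 186.9 to 196.3 on LSK arrays and at most 56.2 elsewhere. Granulocyte arrays also had the highest sums of 11 macrophage markers (91.4 to 94.7, at most 18.4 elsewhere) and of 6 eosinophil, basophil and mast cell markers (357.1 to 415.7, at most 207.3 elsewhere). The part of such cells in the member values was not tested. The erythroid sum did not separate CMP (106 to 142.9) from MEP (101.2 to 145.4). A gene was called where limma's Benjamini-Hochberg adjusted p, over all features tested, was below 0.05 and all arrays of the higher group were well above background.

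The members did not follow 1 common course. On the 75th percentile scale, Klf1 and Klf3 had their highest mean in early erythroblasts, and Klf2, Klf4, Klf6, Klf7 and Klf13 in granulocytes. Klf10 was highest in LSK cells and Klf9 in MEP. The lowest mean was in GMP for Klf1, Klf3 and Klf10, in early erythroblasts for Klf2, Klf4 and Klf7, and in late erythroblasts for Klf6, Klf9 and Klf13. All 9 varied over the 7 cell types by limma's moderated F test, as did 95.3% of the features tested, with adjusted p from 1.68e-12 (Klf7) to 0.00225 (Klf13).

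**Figure D1:**
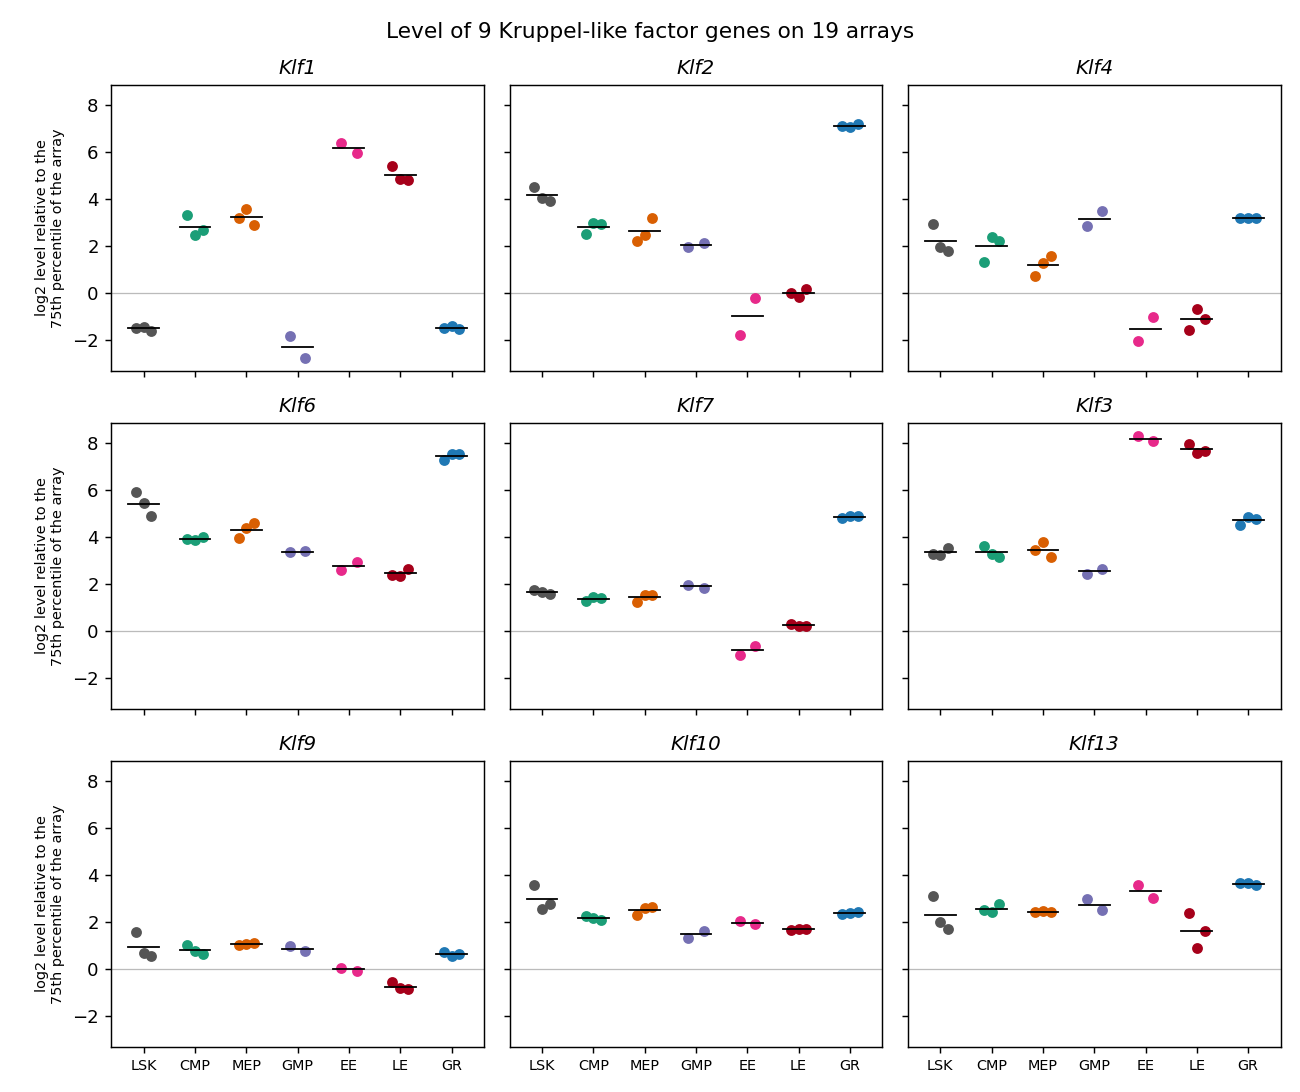
Level of each member (log2 over the 75th percentile of each array, vertical axis) in each cell type (horizontal axis). Points are the 19 arrays and bars the means. Klf1 and Klf3 stand highest in erythroblasts (EE, LE), Klf2, Klf6 and Klf7 in granulocytes (GR), and Klf9, Klf10 and Klf13 vary least.

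Klf1, the erythroid activator, spanned 8.47 between its highest and lowest mean, and Klf2 8.14. On the LSK arrays it stood at -1.49, -1.45 and -1.60, on the CMP arrays at 3.34, 2.46 and 2.69, and on the MEP arrays at 3.18, 3.56 and 2.92. The GMP arrays held -1.84 and -2.76, and the granulocyte arrays -1.51, -1.40 and -1.56. Early erythroblasts reached 6.39 and 5.96, and late erythroblasts 5.42, 4.84 and 4.81. Thus LSK cells, GMP and granulocytes were low, CMP and MEP intermediate and overlapping, and both erythroblast stages above every other array, all on the 75th percentile scale. The rise from LSK to CMP was 4.34 ± 0.28 (log2 difference ± SE, 3 against 3 arrays, limma adjusted p = 6.18e-08), and from CMP to GMP Klf1 fell by 5.13 ± 0.31 (adjusted p = 3.14e-08). MEP exceeded GMP by 5.52 ± 0.31 (adjusted p = 1.1e-08). MEP and CMP differed by 0.39 ± 0.28 (adjusted p = 0.599), less than the spread of their arrays. From MEP to early erythroblasts Klf1 was higher by 2.96 ± 0.31 (adjusted p = 5.23e-07) on the 75th percentile scale, but lower, at -0.53 (adjusted p = 0.434), when arrays were scaled on their spiked-in control RNA. With that scaling late erythroblasts lay below MEP (-2.69, adjusted p = 7.21e-05) and CMP (-2.29, adjusted p = 0.000447), against 1.81 and 2.20 as reported.

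From early to late erythroblasts Klf1 fell by 1.15 ± 0.31 (limma adjusted p = 0.00561), a call that was lost without the first EE array (-0.93, adjusted p = 0.0654). Granulocytes were above GMP by 0.82 ± 0.31 (adjusted p = 0.0312). This last call was lost without the second GMP array (0.35, adjusted p = 0.4), without any of the 3 granulocyte arrays, with normexp background correction (0.31), with quantile normalization (0.64), with the slide as a block (0.69), with only the arrays compared and with spike-in scaling (1.22, adjusted p = 0.16). Beside it, the summed level of the erythroid markers was 15.2 to 20.3 on the GMP arrays and 587.1 to 628.7 on the granulocyte arrays, with 7 of 9 markers well above background on each of the former, 9 of 9 on each of the latter and Hbb-bt, a beta globin, at 8.11 ± 0.07 (SD, n = 3); their part in the result was not tested.

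Klf2, an activator tied to quiescence, fell from LSK cells onward and was far higher in granulocytes. It stood at 4.50, 4.07 and 3.91 on the LSK arrays, at 2.51, 2.98 and 2.93 in CMP, at 2.22, 2.46 and 3.19 in MEP and at 1.95 and 2.11 in GMP. Early erythroblasts held -1.80 and -0.20, late erythroblasts -0.02, -0.18 and 0.16, and granulocytes 7.13, 7.08 and 7.21. The granulocyte arrays lay above all others, the LSK arrays next, and the erythroblast arrays lowest, with CMP and MEP overlapping and GMP just below them. The granulocyte level exceeded that of GMP by 5.11 ± 0.38 (limma adjusted p = 4.35e-08), a 34.4-fold difference, and from MEP to early erythroblasts Klf2 fell by 3.63 ± 0.38 (adjusted p = 4.89e-07). From LSK to CMP Klf2 fell by 1.35 ± 0.34 (adjusted p = 0.00603), a call lost with spike-in scaling (-0.99, adjusted p = 0.351).

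Klf6, an activator with broad expression, showed the same order at the top. LSK arrays stood at 5.93, 5.44 and 4.92, CMP at 3.92, 3.87 and 4.02, MEP at 3.97, 4.4 and 4.59, and GMP at 3.35 and 3.40. Early erythroblasts held 2.62 and 2.96, late erythroblasts 2.38, 2.34 and 2.65, and granulocytes 7.29, 7.55 and 7.56. Granulocytes and then LSK cells did not overlap with any other type, while the 2 erythroblast stages overlapped with each other at the bottom. Klf6 was higher in granulocytes than in GMP by 4.09 ± 0.25 (limma adjusted p = 8.79e-09) and fell from LSK to CMP by 1.5 ± 0.23 (adjusted p = 0.00014). The fall to CMP was not called with spike-in scaling (-1.13, adjusted p = 0.239). Klf6 also fell from MEP to early erythroblasts by 1.53 ± 0.25 (adjusted p = 5.67e-05). MEP stood above GMP by 0.94 ± 0.25 (adjusted p = 0.0109), a call lost without either GMP array (highest adjusted p = 0.0704).

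Klf7, an activator close to Klf6 in sequence, was also highest in granulocytes, at 4.82, 4.90 and 4.89. The 4 progenitor types lay within a narrow band from 1.25 to 1.97, early erythroblasts at -1.04 and -0.62, and late erythroblasts at 0.32, 0.23 and 0.22. Granulocytes exceeded GMP by 2.97 ± 0.15 (limma adjusted p = 1.45e-09), and from MEP to early erythroblasts Klf7 fell by 2.27 ± 0.15 (adjusted p = 3.42e-09). Within the band, GMP stood above CMP by 0.53 ± 0.15 (adjusted p = 0.0246) and above MEP (MEP minus GMP -0.46 ± 0.15, adjusted p = 0.0307). Both calls were lost without either GMP array, with quantile normalization, with the slide as a block and with a percentile over probes detected on all arrays, the first also without the first CMP array and the second without the first MEP array, and with spike-in scaling both turned sign (-0.16 and 0.24).

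Over the means of the 7 cell types, Klf2 and Klf6 had a Pearson correlation of 0.963, Klf2 and Klf7 of 0.952, and Klf6 and Klf7 of 0.896. Over the 14 arrays without erythroblasts the values were 0.983, 0.916 and 0.875. The points of such a correlation share their arrays and scaling, so it is a description.

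From early to late erythroblasts Klf7 rose by 1.09 ± 0.15 (limma adjusted p = 3.32e-05) and Klf2 by 0.99 ± 0.38 (adjusted p = 0.0362). The Klf2 value rested on the first EE array, which held -1.80: without it the difference was 0.19 (adjusted p = 0.664), and within the slide that held that array 1.78 against 0.36 on the other slide with both stages. The Klf7 difference was 1.36 and 0.84 within the same slides, but 0.07 (adjusted p = 0.938) with spike-in scaling, where Klf2 turned to -0.03. Granulocyte markers moved with both genes: their summed level was 591.8 on the first EE array, 1766 on the second and 2617 to 2910 on the LE arrays, with 9 or 10 of the 10 markers well above background on each. The same sum was 1259 to 1428 on the LSK arrays and 169.7 to 307.9 on the CMP arrays, between which Klf2 and Klf6 fell. Its part in these results was not tested.

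Klf4, an activator known from pluripotency and monocyte differentiation, was high in GMP (2.85 and 3.50) and in granulocytes (3.18, 3.18 and 3.19), whose arrays overlapped. LSK arrays held 2.93, 1.96 and 1.78, CMP 1.33, 2.41 and 2.22, MEP 0.70, 1.28 and 1.56, and all erythroblast arrays lay between -2.05 and -0.67. The 4 progenitor types overlapped in part, and no erythroblast array reached any of them. MEP were below GMP (log2 difference of -1.99 ± 0.43, limma adjusted p = 0.00279), and from MEP to early erythroblasts Klf4 fell by 2.72 ± 0.43 (adjusted p = 4.09e-05). With spike-in scaling the difference of MEP from GMP was not called (-1.29, adjusted p = 0.259). Granulocytes and GMP differed by 0.01 ± 0.43 (adjusted p = 0.988), and GMP and CMP by 1.19 ± 0.43 (adjusted p = 0.0838), the latter past the threshold with normexp (1.08) and with the slide as a block (1.36).

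Klf3, the repressor that shares CACCC sites with Klf1, was the other erythroid member. It stood at 3.26, 3.25 and 3.54 in LSK cells, 3.63, 3.29 and 3.15 in CMP, 3.47, 3.79 and 3.15 in MEP, and 2.45 and 2.64 in GMP. Early erythroblasts reached 8.31 and 8.09, late erythroblasts 7.97, 7.60 and 7.66, and granulocytes 4.54, 4.88 and 4.76. LSK cells, CMP and MEP overlapped fully, GMP lay below them, and granulocytes and erythroblasts above. Early erythroblasts exceeded MEP by 4.73 ± 0.21 (limma adjusted p = 6.14e-11), a 26.6-fold difference, and with spike-in scaling by 1.25 (adjusted p = 0.0613). With that scaling the difference of granulocytes was 1.18 from late and -0.29 from early erythroblasts. Granulocytes exceeded GMP by 2.18 ± 0.21 (adjusted p = 5.7e-07), beside the erythroid marker sums given for Klf1. From CMP to GMP Klf3 fell by 0.81 ± 0.21 (adjusted p = 0.0152), a call lost without the first CMP array or either GMP array (highest adjusted p = 0.134). The course of Klf3 parted from that of Klf1 before the erythroblasts: Klf1 rose 20.3-fold from LSK to CMP, and Klf3 changed by 0.00 ± 0.19 (adjusted p = 0.997). Their correlation was 0.748 over the 7 means and -0.08 over the 14 arrays without erythroblasts.

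The Sin3-binding members had the narrowest spans of means on the 75th percentile scale (1.49 to 2.01). With spike-in scaling they did not, since Klf9 was then at -6.31 in late erythroblasts against MEP. Klf9, which glucocorticoid and thyroid hormones induce, stood at 1.59, 0.66 and 0.57 in LSK cells, the first array apart from the others, between 0.56 and 1.11 on all CMP, MEP, GMP and granulocyte arrays, at 0.05 and -0.08 in early and at -0.57, -0.81 and -0.85 in late erythroblasts. The progenitors and granulocytes overlapped, and both erythroblast stages lay below them. Klf9 fell by 1.08 ± 0.24 from MEP to early erythroblasts (limma adjusted p = 0.000815) and by 0.73 ± 0.24 from early to late (adjusted p = 0.0184), the second call lost without either EE array (highest adjusted p = 0.0961), with normexp (-0.34) and with the percentile over probes detected on all arrays (-0.37).

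Klf10, an early response gene of transforming growth factor beta, stood at 3.57, 2.57 and 2.76 in LSK cells, 2.26, 2.16 and 2.08 in CMP, 2.31, 2.59 and 2.65 in MEP, 1.33 and 1.62 in GMP, 2.04 and 1.92 in early and 1.68, 1.70 and 1.73 in late erythroblasts, and 2.36, 2.38 and 2.45 in granulocytes. The first LSK array was highest, the other LSK arrays overlapped with MEP, and GMP arrays were lowest, within a span much narrower than that of Klf1. It fell from LSK to CMP by 0.80 ± 0.20 (limma adjusted p = 0.00705), and MEP exceeded GMP by 1.04 ± 0.23 (adjusted p = 0.00298). With spike-in scaling neither was called (-0.43, adjusted p = 0.621, and 1.74, adjusted p = 0.0734). The fall to CMP was also lost with only the arrays compared (adjusted p = 0.0816). Granulocytes exceeded GMP by 0.92 ± 0.23 (adjusted p = 0.00265). That call was lost with the slide as a block (0.79, adjusted p = 0.122) and with spike-in scaling (1.32, adjusted p = 0.116). The fall from MEP to early erythroblasts of 0.54 ± 0.23 (adjusted p = 0.0426) was lost when any of 10 of the 19 arrays was left out, with the slide as a block and with quantile normalization.

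Klf13, a regulator known from T lymphocytes, stood at 3.13, 2.02 and 1.71 in LSK cells, between 2.42 and 2.98 on all CMP, MEP and GMP arrays, at 3.59 and 3.04 in early and 2.38, 0.91 and 1.61 in late erythroblasts, and at 3.67, 3.68 and 3.58 in granulocytes. LSK and late erythroblast arrays were the most scattered. It fell from early to late erythroblasts by 1.68 ± 0.40 (limma adjusted p = 0.00255), its only call among the 7 neighbouring comparisons. This call was lost with only the arrays compared (adjusted p = 0.061). Early erythroblasts against MEP (0.87 ± 0.40, adjusted p = 0.0581) and granulocytes against GMP (0.90 ± 0.40, adjusted p = 0.0613) missed the threshold, and each passed it when LSK array 1 or 3 or LE array 1 or 2 was left out.

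Ordering the 7 means of each gene gave 54 pairs of neighbours, of which 18 were called and 36 were not. Klf2 had the most separated steps (4 of 6), and Klf10 and Klf13 none, so the order of their cell types is not resolved between neighbours. Of all 21 pairs of cell types, Klf1 and Klf2 differed in 18, Klf3, Klf6 and Klf7 in 17, Klf4 in 14, Klf9 and Klf10 in 11 and Klf13 in 9. These counts stand against a high share of all features called in most pairs, from 3.25% between CMP and MEP to 85.1% between MEP and late erythroblasts. Against LSK cells it was 27.4% for MEP, 41.5% for GMP, 78.7% for early and 80.5% for late erythroblasts and 66.5% for granulocytes. Against CMP it was 77.7% for early and 81.4% for late erythroblasts and 69.3% for granulocytes. Against GMP it was 80.5% and 84.8% for the erythroblast stages, and granulocytes differed from MEP in 69.6%, from early erythroblasts in 78% and from late erythroblasts in 81.7% of the features.

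By stage, 4 of the 9 members were called from LSK to CMP (1 higher, 3 lower), where 34.2% of all features were called (21.4% higher, 12.8% lower); the members' median difference was -0.24 and that of all features 0.17. Between MEP and CMP limma called 0 members, where 3.25% of features were called (1.35% higher, 1.9% lower); none of the 9 had an unadjusted p below 0.05, the lowest being 0.0572 for Klf4. Between GMP and CMP 3 were called (1 higher, 2 lower; of features 15.9%, with 8.13% higher and 7.76% lower) and between MEP and GMP 6 (4 higher, 2 lower; of features 29%, with 12.6% higher and 16.5% lower). With maturation, 8 members were called from MEP to early erythroblasts (2 higher, 6 lower; of features 80.5%, with 43.2% higher and 37.3% lower), 5 from early to late erythroblasts (2 higher, 3 lower; of features 57.6%, with 20.8% higher and 36.7% lower) and 6 from GMP to granulocytes (6 higher, 0 lower; of features 65.2%, with 27.1% higher and 38.1% lower). The members' median differences there were -1.08, -0.33 and 0.92, against 0.22, -0.17 and -0.19 for all features. When single arrays were left out, the count between GMP and CMP was 1 without the first CMP array or either GMP array, that for late erythroblasts was 2 without the first EE array, and the others stayed within 1.5 times. At maturation the shares of members called lay near those of all features. The share between MEP and GMP lay above it, with a count of 4 without either GMP array. On the slides that held both groups of a comparison, every called member kept its sign within the slide, and no slide held both GMP and granulocytes.

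**Figure D2:**
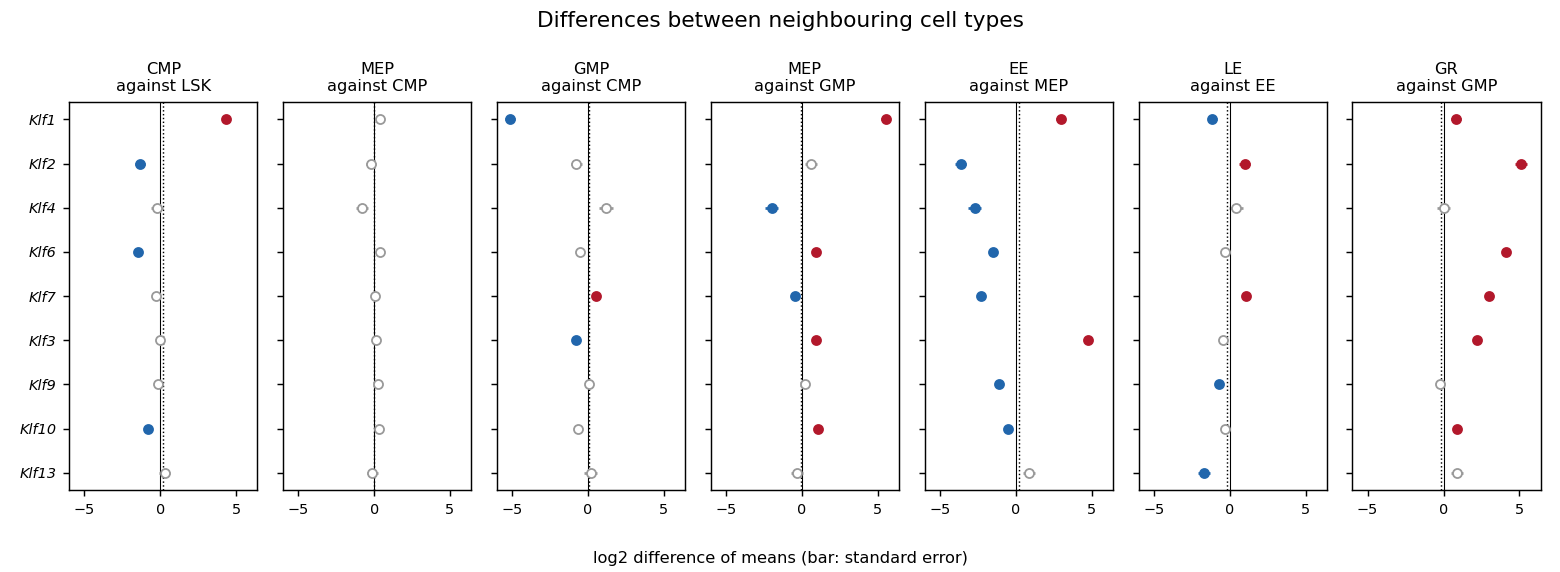
Log2 difference of means (horizontal axis, bar: standard error) of each member in the 7 comparisons of neighbouring cell types. Filled points passed the test (red higher, blue lower), open points did not, and the dotted line is the median of all features tested. No member passed between CMP and MEP, 6 were lower in EE than in MEP, and 6 were higher in GR than in GMP.

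The change from MEP to late erythroblasts and that from GMP to granulocytes were compared directly in 1 interaction. All 9 members differed between the 2 routes, as did 75.4% of the 15038 features tested. Klf2 fell by 2.64 on the red cell route and rose by 5.11 on the granulocyte route, a difference of -7.75 ± 0.51 (limma adjusted p = 8.28e-09), Klf6 fell by 1.86 and rose by 4.09 (-5.95 ± 0.34, adjusted p = 2.23e-09), and Klf7 fell by 1.18 and rose by 2.97 (-4.15 ± 0.20, adjusted p = 4.92e-10). Klf10 had the same pattern of signs at a smaller size, with -0.81 and 0.92. Klf4 and Klf9 fell on the red cell route by 2.30 and 1.81 and had differences of 0.01 and -0.23 on the other that did not pass the test. Klf3 rose on both routes, by 4.27 and 2.18 (difference 2.09 ± 0.28, adjusted p = 1.2e-05). With spike-in scaling its value on the red cell route was -0.23 (adjusted p = 0.693) and the difference of the routes -2.81. Klf1 differed by 0.99 ± 0.41 (adjusted p = 0.0414), a call lost without any of 7 single arrays (lowest value 0.53), with normexp (0.59), the percentile over probes detected on all arrays (0.87), the authors' values (0.94), the slide as a block (1.07, adjusted p = 0.124) or only the arrays compared, and turned to -3.91 with spike-in scaling. The Klf13 call (-1.71, adjusted p = 0.0102) was lost with the slide as a block (-2.04, adjusted p = 0.0735) and without the second GMP array (-1.47, adjusted p = 0.0521).

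**Figure D3:**
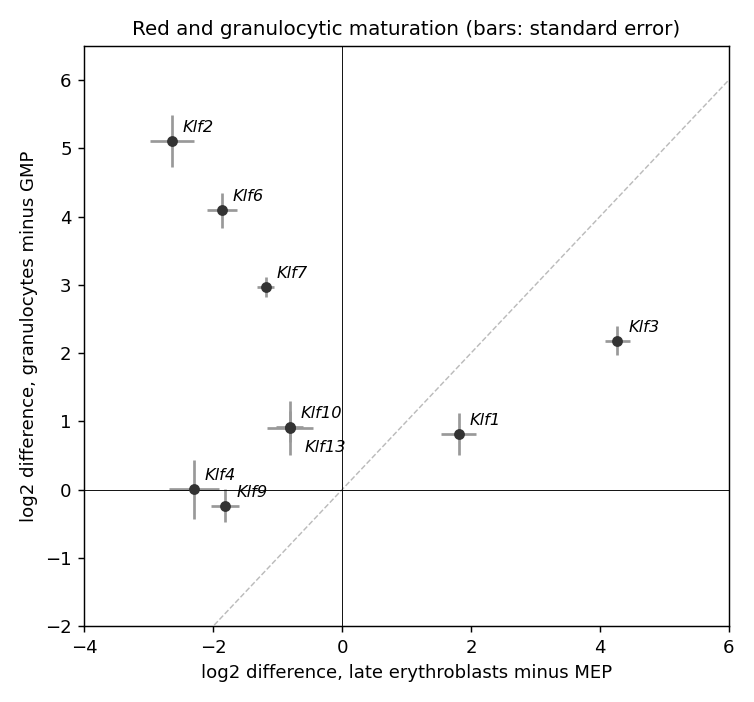
Log2 difference from MEP to late erythroblasts (horizontal axis) against that from GMP to granulocytes (vertical axis) for the 9 members, with standard errors and the line of equal change dashed. Klf2, Klf6 and Klf7 lie at upper left (lower in late erythroblasts, higher in granulocytes), and Klf3 and Klf1 lie to the right below the line.

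Scaling set the sign of the erythroblast values for a few members. With arrays scaled on 7 spiked-in control probes, the median of all features from MEP to early erythroblasts moved from 0.22 to -3.26 and that from early to late erythroblasts from -0.17 to -1.19. It moved less between progenitors, to 0.54 for CMP against LSK, -0.65 for GMP against CMP and 0.64 for MEP against GMP. Relative to that median, Klf3 stood 4.51 and Klf1 2.73 above the typical feature in early erythroblasts against MEP, and Klf2 below it (-3.85). These values are the same for the 75th percentile and the spike-ins by construction, since both shift a whole array, and with normexp they were 3.57 for Klf3 and 1.72 for Klf1. Klf13 turned from 0.87 to -2.61 (adjusted p = 0.000887). The other 4 alternative scalings kept the sign of all 9 members in this comparison.

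**Figure D4:**
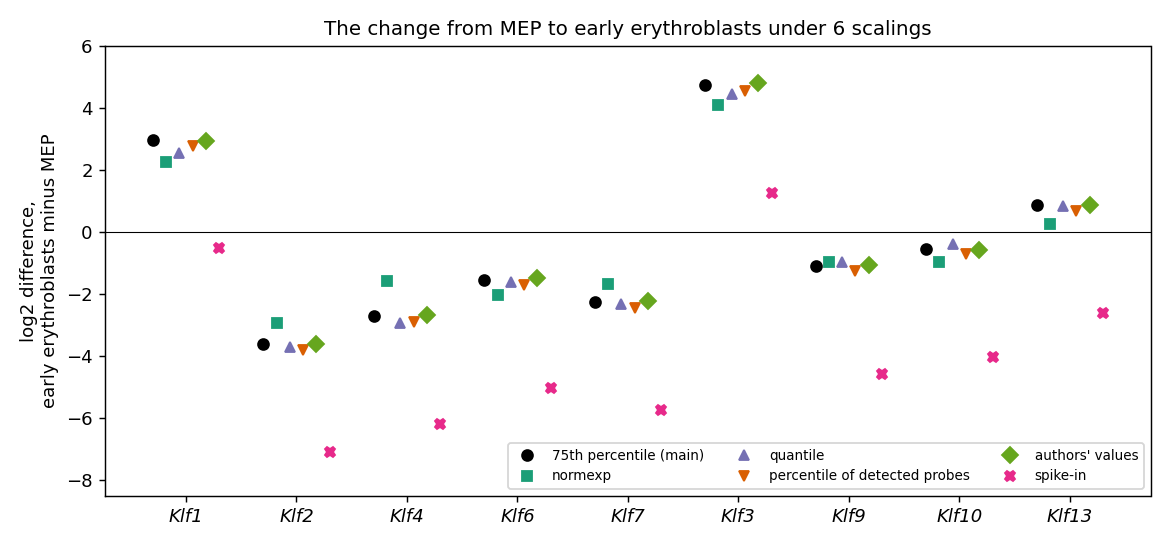
Log2 difference between early erythroblasts and MEP (vertical axis) of the 9 members under 6 ways to scale the arrays (symbols). Spike-in scaling (crosses) lies lower for every gene, with Klf1 at -0.53 and Klf3 at 1.25. The other 5 share the sign of each gene but lie apart for some, such as Klf4 (up to -1.57, against -2.72 as reported).

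Of the 8 other Klf genes, Klf14 and Klf15 were well above background on no array. Klf5, an activator of epithelial and myeloid cells, was highest in granulocytes (2.85) and exceeded GMP there by 4.62 ± 0.32 (limma adjusted p = 2.44e-08). Klf8, which Klf1 activates and Klf3 represses, stood at -0.35 in MEP and was well above background on no erythroblast array, at least 5.71-fold lower in early erythroblasts than in MEP (adjusted p = 3.41e-10). Klf12, the remaining CtBP-binding member, was measured above background on the full set of arrays in LSK cells alone, at -1.71, and was lower in CMP (adjusted p = 1.24e-06), where 1 of 3 arrays measured it, so that no size is given. Klf11, a Sin3-binding relative of Klf10, was higher by 1.95 ± 0.32 in early erythroblasts than in MEP (adjusted p = 5.3e-05) relative to the 75th percentile but lower with spike-in scaling (-1.53), and rose by 2.78 ± 0.32 from GMP to granulocytes (adjusted p = 3.18e-06). Klf16, of the same group, rose by 0.70 ± 0.22 in early erythroblasts (adjusted p = 0.0102), again turning sign with spike-in scaling (-2.79), and fell by 0.76 ± 0.22 in granulocytes (adjusted p = 0.00813). Klf17 was brighter in granulocytes than in GMP, where no array measured it, by at least 4.34-fold (adjusted p = 1.46e-06).

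Genes of the proteins that Klf factors recruit were called about as often as all features between early erythroblasts and MEP, and more often between the erythroblast stages. Of 18 corepressor and coactivator genes, 8 were higher and 5 lower in early erythroblasts than in MEP, with a median of 0.02, where 43.2% of all features were higher and 37.3% lower (0 higher and 17 lower with spike-in scaling). Ctbp2, a partner of Klf3, fell by 6.20 ± 0.41 (limma adjusted p = 3.31e-09). It was well above background on only 1 of 2 EE arrays, so this size is uncertain. Kat2a, an acetyltransferase, fell by 5.13 ± 0.19, while Fhl3, a Klf3-binding LIM protein, was higher by 2.64 ± 0.24 (adjusted p = 9.31e-08). From early to late erythroblasts 6 of the 18 were higher and 10 lower (median -0.79, all features -0.17). There 20.8% of all features were higher and 36.7% lower. Between progenitors, 4 of 18 were higher in CMP than in LSK cells, near the share of all features (21.4% higher, 12.8% lower). Among them Sap30 of the Sin3 complex was higher by 1.0 ± 0.16. With quantile normalization 1 of the 18 was higher and 3 lower.

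Erythroid genes known as Klf1 targets changed in the direction of Klf1 from LSK to CMP, from CMP to GMP and, over the 75th percentile, from MEP to early erythroblasts, and were split between directions at the later stages. From LSK to CMP 22 of 25 tested were higher and 1 lower (median 1.51, all features 0.17; 14 higher with spike-in scaling; Hbb-b1 and Ahsp of the list were not analysed here), with Kel, a blood group protein, up by 4.73 ± 0.22 and Rhag, an ammonia channel, by 4.61 ± 0.32. From CMP to GMP 0 were higher and 19 of 24 lower (median -1.86). Between MEP and CMP 4 were lower and 0 higher, among them Dmtn, a membrane skeleton gene, with -1.29. In early erythroblasts 23 of 24 were higher than in MEP (median 5.36; 15 with spike-in scaling, median 1.88, where Klf1 was at -0.53), led by Slc4a1, the anion exchanger band 3, at 12.46 ± 0.25, and Alas2, the first enzyme of heme synthesis, at 12.05 ± 0.22. From early to late erythroblasts, where Klf1 fell, 6 were higher and 6 lower: Xpo7, a nuclear export gene, rose by 4.26 ± 0.21 and Cdkn2c, a cell cycle inhibitor, fell by 1.51 ± 0.22. In granulocytes 12 were higher than in GMP and 9 lower, led by Hbb-bt at 5.88 ± 0.20. All of these named differences had limma adjusted p of at most 5.07e-05 save that of Dmtn (adjusted p = 0.00862). Of all features 21.4% were higher from LSK to CMP, 7.76% lower from CMP to GMP and 43.2% higher from MEP to early erythroblasts. From early to late erythroblasts 20.8% of all features were higher and 36.7% lower, and from GMP to granulocytes 27.1% and 38.1%.

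Of 6 genes known to be repressed by Klf3, 4 were lower and 1 higher in early erythroblasts, where Klf3 was highest, than in MEP (median -0.95, all features 0.22). In this comparison 37.3% of all features were lower and 43.2% higher. Klf8 and Itgb7, an integrin, fell, the latter by 1.77 ± 0.27 (limma adjusted p = 2.39e-05), as did Lgals3, galectin-3, by 1.22 ± 0.42 (adjusted p = 0.0156). Fads1, a fatty acid desaturase, was higher by 1.54 ± 0.21 (adjusted p = 9.63e-06). With spike-in scaling all 6 were lower. Itgb7 is also among the genes known to follow Klf2 or Klf4, so its fall enters the counts of both lists. In granulocytes, where Klf3 also rose, Lgals3 was higher than in GMP by 3.26 ± 0.42 (limma adjusted p = 9.5e-06). The means of Itgb7, Stard4 and C1qtnf12 were also higher in granulocytes than in GMP, and those of Fads1 and Klf8 were lower.

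Of 12 genes known to follow Klf2 or Klf4, 6 of 11 tested were higher in granulocytes than in GMP and 2 lower (median 1.17, all features -0.19). Of all features 27.1% were higher there and 38.1% lower. Ccr7, a chemokine receptor, was higher by 8.32 ± 0.45 (limma adjusted p = 2.45e-09) and Cd14, a coreceptor for bacterial lipopolysaccharide, by 4.63 ± 0.46 (adjusted p = 7.55e-07). S1pr1, the receptor by which cells leave tissues and a known Klf2 target, was higher by 3.88 ± 0.37 (adjusted p = 4.53e-07). Ccr7 and S1pr1 were each well above background on only 1 of 2 GMP arrays, so their sizes are uncertain. Lymphocytes also express Ccr7 and S1pr1, and lymphocyte markers moved with them and with Klf2: 6 of 8 B cell markers were higher and 0 lower in granulocytes than in GMP (median 1.99), and 7 of 8 T and NK cell markers higher and 1 lower (median 3.24). Cd3d of T cells stood at 2.46 in granulocytes and at -2.91 in GMP. The summed linear level of the B cell markers was 14.97 to 17.9 on the GMP and 31.1 to 33.0 on the granulocyte arrays, and that of the T and NK cell markers 128.6 to 191.6 and 84.4 to 88.3. From MEP to early erythroblasts 6 of 10 were lower and 0 higher, where 37.3% of all features were lower and 43.2% higher. S1pr1 was at least 9.06-fold lower. From LSK to CMP, where Klf2 fell, 4 of 12 were lower and 0 higher (1 lower with the authors' background-subtracted values and 0 with spike-in scaling), S1pr1 by 1.96 ± 0.33 (adjusted p = 0.000331). Of all features 12.8% were lower in this comparison and 21.4% higher. There 6 of 8 T and NK cell markers were lower and 0 higher (median -2.28; summed level 50.7 to 65.3 in LSK cells and 33.0 to 41.4 in CMP), and 3 of 8 B cell markers lower (11.6 to 13.5 and 8.72 to 12.8). The part of lymphocyte RNA in these differences was not tested.

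Immediate early genes, which cells switch on within minutes of a stimulus or of handling, were by their median highest in granulocytes and next in LSK cells, as Klf2 and Klf6 were. The median level of 22 such genes was 3.87 in LSK cells, 2.57 in CMP, 3.20 in MEP, 0.98 in GMP, -1.32 in early and -0.48 in late erythroblasts and 4.56 in granulocytes. Their summed linear level had another order, with 2062 to 2506 on late erythroblast arrays and 1045 to 1409 on LSK arrays. This sum was 923.5 to 1093 on early erythroblast and 747.2 to 789.2 on granulocyte arrays. Of the 22 genes, 9 were highest in granulocytes, 8 in LSK cells, 3 in late erythroblasts and 1 each in CMP and MEP. From LSK to CMP 14 of 22 were lower and 0 higher (1 lower with spike-in scaling), from CMP to GMP 17 of 20 lower, from MEP to early erythroblasts 16 of 21 lower and 2 higher, and from GMP to granulocytes 19 of 21 higher and 1 lower. Of all features 12.8% were lower from LSK to CMP, 7.76% from CMP to GMP and 37.3% from MEP to early erythroblasts. From GMP to granulocytes 27.1% of all features were higher. Egr1, a zinc finger factor induced by growth factors, was higher in granulocytes than in GMP by 5.09 ± 0.75 (limma adjusted p = 3.49e-05), Nr4a1, an orphan nuclear receptor, by 5.98 ± 0.60 (adjusted p = 8.62e-07), and Atf3, a stress factor, by 7.78 ± 1.06 (adjusted p = 1.55e-05). The part of such a response in the Klf2, Klf6 and Klf10 values was not tested.

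**Figure D5:**
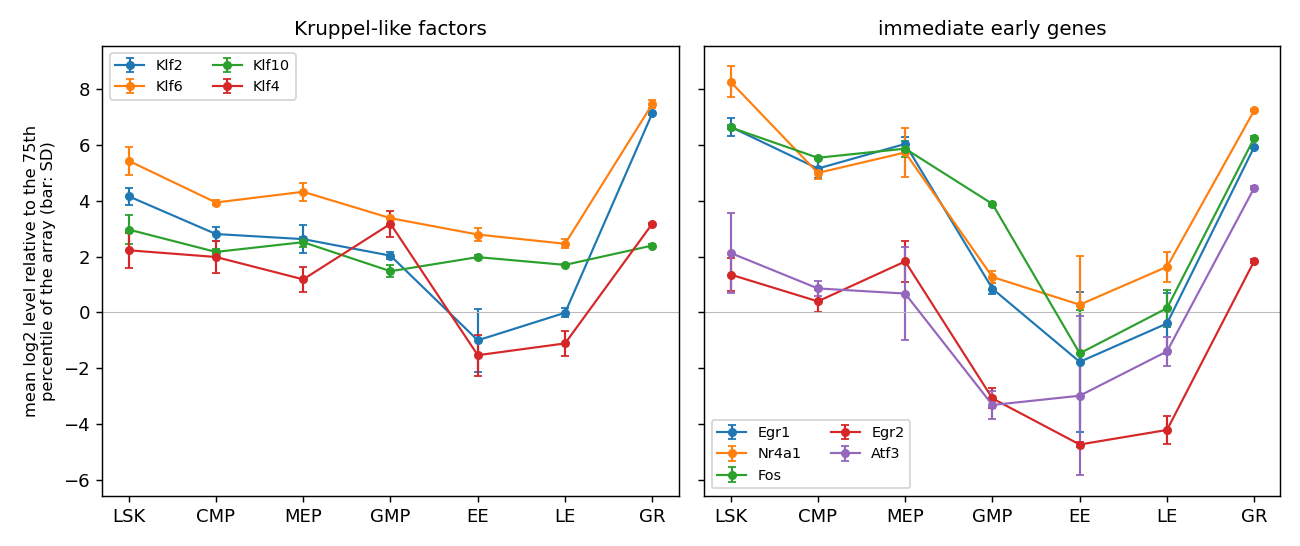
Mean log2 level over the 75th percentile of each array (vertical axis, bar: SD) in each cell type (horizontal axis) for 4 members (left) and 5 immediate early genes (right). Lines only join the symbols of a gene. Egr1, Nr4a1, Fos, Egr2 and Atf3 have lower means in GMP and erythroblasts than in LSK and GR, and Klf2 and Klf6 are likewise highest in GR and next in LSK.

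Around Klf9, a list of 9 genes held glucocorticoid-induced genes and Nr3c1, the gene of the glucocorticoid receptor itself. All 9 fell from MEP to early erythroblasts (median -2.07), also with spike-in scaling. From GMP to granulocytes, where Klf9 did not pass the test, 7 of 9 rose (median 2.47). Per1, a clock gene, rose there by 3.59 ± 0.37 (limma adjusted p = 1.07e-06) and Dusp1, a phosphatase of MAP kinases, by 3.88 ± 0.20 (adjusted p = 1.48e-09). Around Klf10, 11 of 12 genes of the transforming growth factor beta pathway were lower in early erythroblasts than in MEP (median -2.92). Tgfbr2, the ligand-binding receptor, fell by 5.82 ± 0.57 (adjusted p = 2.61e-07) and the shared mediator Smad4 by 4.78 ± 0.20 (adjusted p = 3.18e-11). Each was well above background on only 1 of 2 EE arrays, so these sizes are uncertain. In granulocytes 7 of 13 were higher than in GMP and 2 lower (2 and 1 with spike-in scaling), Skil, a repressor of Smad signalling, higher by 3.48 ± 0.47 (adjusted p = 1.62e-05) and the inhibitor Smad6 at least 4.59-fold lower (adjusted p = 3.64e-09). Beside both lists, 37.3% of all features were lower in early erythroblasts than in MEP, and 27.1% were higher in granulocytes than in GMP.

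The genes whose levels ran most closely with each member over the 19 arrays were taken from 14463 named genes that varied over the cell types, by Pearson correlation, as a description. For Klf1 they were Gata1, the erythroid GATA factor (r = 0.998, and 0.998 over the 14 arrays without erythroblasts), Ces2g (0.997) and Slc25a21 (0.995). For Klf2 they were Lsp1, a leukocyte actin-binding protein (0.993), Plp2 (0.987) and Ppp1r3d (0.986). For Klf3 Prnp, the prion protein (0.992), Mindy2 and Usp32 (both 0.991) came first, and for Klf6 Slc2a3, a glucose transporter (0.986), Gpr137b (0.983) and Ptgs2, inducible cyclooxygenase (0.977). For Klf4 they were Tcirg1 (0.982), Gm1673 and Ikbke, for Klf7 Gpsm3 (0.99), Sfxn5 and Gsdme, for Klf9 Topors (0.956), 1110065P20Rik and Dnttip2, for Klf10 Cdkn1c, a cell cycle inhibitor of stem cells (0.893), Socs2 and Rilpl1, and for Klf13 Bloc1s4 (0.927), Smndc1 and Rfx1. Those of Klf9 rested on the erythroblasts, since r for Topors was 0.652 without them, while those of Klf1 and Klf2 did not (0.994 for Lsp1).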

How the data were processed

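The authors deposited scanner intensity files of 19 arrays; per the file headers, the software was version 11.5.1.1 of Agilent Feature Extraction, its protocol GE1_1105_Oct12 and the annotation mouse build mm9. The labels name Cy5, and the files hold 1 channel. The authors' series values equal the background-subtracted intensity. Here the processed signal was taken to log2 minus the 75th percentile of each array. Control spots and outlier flags were left out, and probes were named through RefSeq (GRCm38.p6). Promoter sequences are RefSeq's.

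Limma 3.58.1 in R 4.3.3 fitted cell type means over all 19 arrays (eBayes, Benjamini-Hochberg), with an F test and an interaction of the 2 maturation routes. Features entered a test if all arrays of at least 1 compared group (for the interaction, of all 4) were well above background there. A group above background on no array gave a bound: the brighter mean against the lowest signal above background or the probe's own signal, whichever was higher ("at least N-fold"). The fit was checked on simulated data. Named beside the members were up to 4 called genes per list with the largest differences, the other Klf genes, and the 3 genes most like each member. A few genes that this rule names are not reported here. Alternatives were other scalings, filters, blocks and left-out arrays; normexp used median signals, with an offset of 50. The members and lists were chosen with earlier results of these data known. The number of arrays limits the precision.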

Additional observations from a re-analysis of the deposited data

Results flagged for a closer look

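For all 9 members the change from MEP to late erythroblasts differed from the change from GMP to granulocytes by a test of that difference (limma interaction, adjusted p at most 0.0414), as it did for 75.4% of the features tested. The log2 difference of the 2 changes was 0.99 for Klf1, -7.75 for Klf2, 2.09 for Klf3, -2.30 for Klf4, -5.95 for Klf6, -4.15 for Klf7, -1.58 for Klf9, -1.73 for Klf10 and -1.71 for Klf13. The Klf1 call was lost in 5 of the settings tried and without any of 7 single arrays, and the Klf13 call with the slide as a block (adjusted p = 0.0735) and without the second GMP array (adjusted p = 0.0521). The 7 negative values kept their sign under every alternative tried, and the 2 positive ones turned negative with spike-in scaling.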

How the results depend on the processing

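The count of called members moved by more than 1.5 times in a few settings. With spike-in scaling it was 1 for CMP against LSK, 1 for GMP against CMP, 1 for MEP against GMP and 3 for late against early erythroblasts; with only the arrays compared it was 1 for GMP against CMP, 3 for MEP against GMP and 3 for late against early erythroblasts; and with normexp it was 6 for GMP against CMP. With 1 array left out, it ranged from 1 to 4 for GMP against CMP and from 2 to 5 for late against early erythroblasts; a lone remaining GMP or EE array is then assumed to vary like the other groups. The replicate block changed few values: Klf10 from MEP to early erythroblasts (-0.54, adjusted p = 0.0596) and Klf2 from early to late (0.92, adjusted p = 0.0565) were no longer called, and Klf13 was called for early erythroblasts against MEP (0.82) and for granulocytes against GMP (0.95). Replicate numbers did not pair the arrays: over 52 pairs sharing a number, deviations from group means had a median correlation of -0.02 (range -0.52 to 0.48), against 0.27 for 30 pairs sharing a slide.

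Signs turned mostly where the difference was small. For CMP against LSK, Klf3 was -0.31 with quantile normalization, -0.33 with the percentile over probes detected on all arrays and -0.027 with the slide as a block; Klf13 was -0.041 with that percentile; and with spike-in scaling Klf4 was 0.13, Klf7 0.079 and Klf9 0.23. For GMP against CMP, spike-in scaling gave -0.16 for Klf7, -0.62 for Klf9 and -0.52 for Klf13, and Klf9 was -0.007 with normexp and -0.09 with the detected-probe percentile. With spike-in scaling, MEP against GMP was 0.24 for Klf7 and 0.40 for Klf13, early erythroblasts against MEP -0.53 for Klf1 and -2.61 for Klf13, late against early erythroblasts -0.03 for Klf2 and -0.60 for Klf4, granulocytes against GMP 0.17 for Klf9, and the interaction -3.91 for Klf1 and -2.81 for Klf3. The detected-probe percentile gave 0.025 for Klf6 and 0.077 for Klf10 in late against early erythroblasts and 0.067 for Klf9 in granulocytes against GMP, where Klf4 was -0.009 with the replicate block. With 1 array left out, CMP against LSK ranged from -0.14 to 0.11 for Klf3, -0.46 to 0.12 for Klf4 and -0.32 to 0.19 for Klf9; MEP against CMP from -0.47 to 0.02 for Klf2 and -0.045 to 0.275 for Klf3; GMP against CMP from -0.046 to 0.176 for Klf9 and -0.073 to 0.4 for Klf13; and Klf4 from -0.10 to 0.94 for late against early erythroblasts and -0.32 to 0.33 for granulocytes against GMP. Apart from the scalings' own construction, the cause was not tested. Averaging all probes of a gene cannot change a member, since each has 1 probe.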

Other observations

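The Sp genes, relatives of the Kruppel-like factors that bind GC boxes, shared a direction in early erythroblasts. Of 9 Sp genes, 6 (Sp1, Sp2, Sp3, Sp4, Sp6 and Sp8) were tested there, and each was higher in early erythroblasts than in MEP on the 75th percentile scale, where 43.2% of all features were called higher, but all 6 had negative differences with spike-in scaling. Sp4, a factor known from neurons, was higher by 2.47 ± 0.21 (log2 difference ± SE, limma adjusted p = 4.31e-08) and Sp2 by 2.37 ± 0.14 (adjusted p = 7.67e-10), while Sp1, the ubiquitous member, was higher by 0.66 ± 0.21 (adjusted p = 0.0106). Sp1 then fell by 1.47 ± 0.21 and Sp2 by 0.89 ± 0.14 from early to late erythroblasts, and Sp4 had a difference of -0.06 ± 0.21 (adjusted p = 0.805). Of the same 6, Sp8 alone passed the test from GMP to granulocytes, higher by 2.06 ± 0.35 (adjusted p = 0.00011). Of the remaining Sp genes, Sp5 and Sp9 were well above background on no array and Sp7 on 1 LSK and 1 MEP array.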
